A study of Mus musculus with 3 samples.

Results

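The genes described here are 48 autophagy and vesicle fusion genes, fixed as a list of symbols by function, and their Runx1 regions are all regions that the authors' annotated tables assigned to those symbols. Of the 48, 29 had an assigned region in at least 1 of 3 replicates of Runx1 chromatin immunoprecipitation and sequencing (ChIP-seq) of mouse spinal cord. Replicate 1 assigned 4 of its 451 regions to 4 of these genes, replicate 2 assigned 5 of 1641 to 5, and replicate 3 assigned 31 of 13194 to 28. The background was 21887 RefSeq coding genes.

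All 3 replicates belonged to 1 group: dissociated, formaldehyde-fixed cells from the spinal cords of male C57BL/6J mice aged 8 to 10 weeks. No genotype or treatment is given for them in the labels. Each immunoprecipitation used about 10 µg of chromatin pooled from 10 cords and 9 µg of a rabbit polyclonal Runx1 antibody. The title of the series places the factor in microglia and in opioid analgesia and withdrawal, but the chromatin came from whole cord. In bulk chromatin, a region bound in few cells and a region weakly bound in many cells cannot be told apart. The labels do not say whether animals were shared between replicates, and with 1 group there is no contrast between conditions to test. The values below are therefore descriptions of 3 libraries, set beside the same values over all coding genes or all regions.

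Autophagy encloses cytoplasm in a double membrane, the autophagosome, and delivers it to the lysosome. The ULK kinase complex starts the process, phosphatidylinositol 3-kinase complexes mark the nascent membrane, and a ubiquitin-like conjugation system attaches Atg8 proteins (the LC3 and GABARAP families) to it. Cargo receptors bind Atg8 proteins and selected cargo. The HOPS tethering complex, the small GTPase Rab7 and SNARE proteins then fuse the closed autophagosome with the lysosome. Runx1 is a DNA-binding transcription factor best known from blood and myeloid cells, and it recognises a short core sequence, read here as TGTGGT or TGCGGT.

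Replicate 3 stood apart from the other libraries. It had 29.3 times as many regions as replicate 1 and a lower p limit, with lowest deposited −log10 p values of 6.02, 5.42 and 4.53 in replicates 1, 2 and 3. The fold given for a region is the authors' enrichment over local background at its strongest summit, and its percentile is its rank among all regions of the same replicate. The pileup is the number of fragments over the summit that this fold and the deposited −log10 p imply. Median pileups over all regions were 21, 20 and 24 fragments. Of short marker lists, regions were assigned in replicate 3 to 1 of 5 microglial, 6 of 6 oligodendrocyte, 5 of 5 neuronal and 3 of 5 astrocyte genes. Replicate 2 had 0, 5, 2 and 0 of these, and replicate 1 had 0 of each list. The shares of all coding genes with a region were 1.51%, 5.16% and 31.4% in replicates 1, 2 and 3. The oligodendrocyte and neuronal shares were above these in replicates 2 and 3. On 5 genes each, the microglial and astrocyte counts do not set those lists apart from background. Counts of 0 in replicate 1 do not set any of the lists apart either. Assigned regions do not measure expression, and the part of any cell type in the results below was not tested.

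Regions were found at genes of every stage, from initiation to fusion. In replicate 3 they reached 28 of the 48 genes, or 58.3% (95% Wilson interval 44.3 to 71.2), beside 31.4% of all coding genes. In replicate 1 the share was 8.33% beside a background of 1.51%, and in replicate 2 it was 10.4% beside 5.16%. The replicate 2 share did not stay above background at stricter limits: it was 2.08% beside 2.08% at a −log10 q of 5 or more, and 0% beside 0.882% at a fold of 5 or more. Regions in at least 2 replicates were assigned to 6 genes (12.5%, background 5.43%): Gabarap, Atg3, Calcoco1, Vps33a, Epg5 and Rab7. All 6 had overlapping regions in the replicates concerned (background 5.13%). Gabarap and Calcoco1 had regions in all 3 replicates (4.17%, background 0.836%). Without replicate 3 the count of 6 fell to 2, again Gabarap and Calcoco1, a count for which no background share is given. A further 22 genes had a region in replicate 3 alone and Wipi2 had one in replicate 2 alone.

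**Figure D1:**
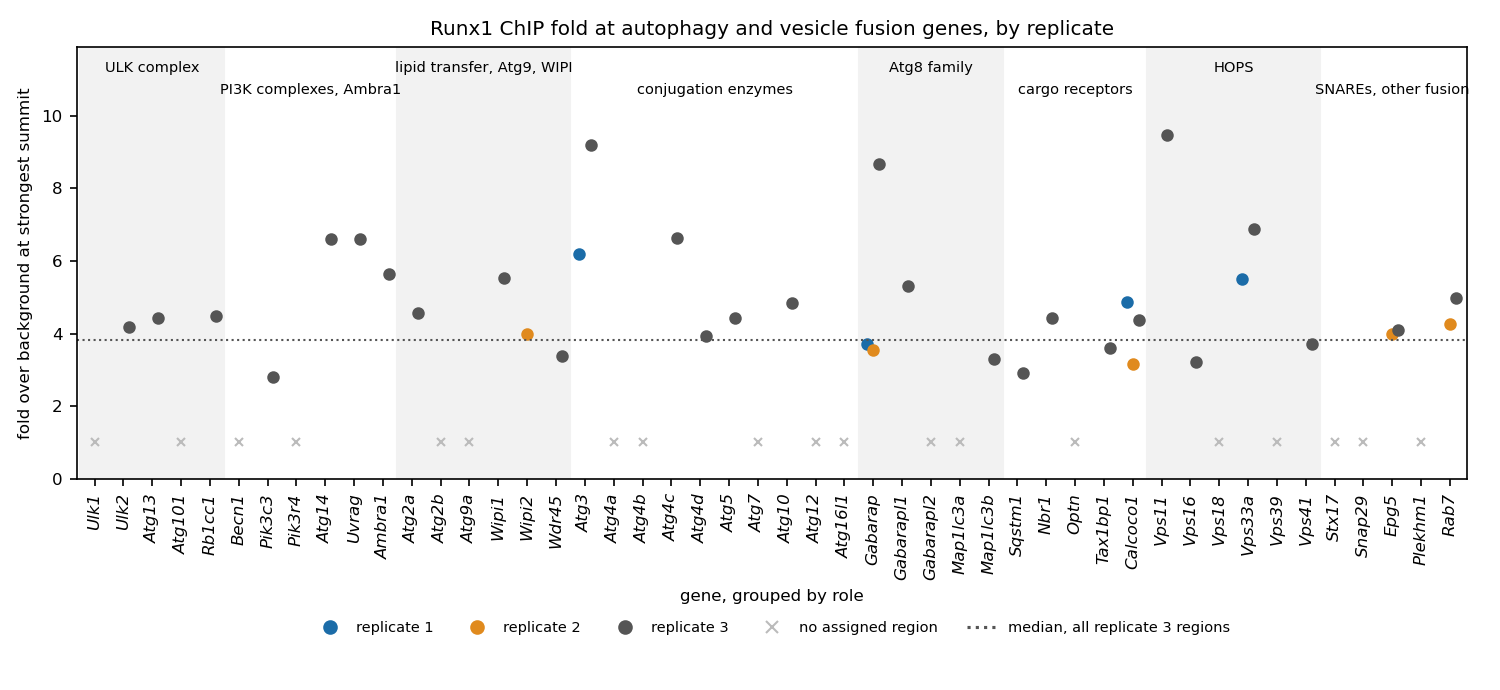
Fold over background at the strongest summit (vertical axis, authors' values) for each of the 48 genes (horizontal axis, grouped by role), with 1 point per replicate in which a region was assigned. Grey crosses mark the 19 genes without an assigned region and carry no fold value, and the dotted line is the median of 3.81 over all regions of replicate 3. The highest points, Vps11, Atg3 and Gabarap, are from replicate 3 and lie between 8.68 and 9.48.

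A share above background was also found outside these 48 genes. Among 63 other genes of the pathway, such as membrane, mitophagy, transport and upstream kinase genes, 41 had a region in replicate 3. This was 65.1% (interval 52.8 to 75.7), beside 31.4% of all coding genes. In that list 11 of the 63 genes had regions in at least 2 replicates, beside 5.43% of all coding genes. They were Tmem41b, Tbc1d5, Rab33b, Snx18, Ccpg1, Vps8, Rmc1, Rab5a, Tsc1, Rheb and Akt1s1. Tsc1, a repressor of the mTORC1 kinase complex that holds autophagy back, was the single gene among them with regions in all 3 replicates (background 0.836%). Its folds were 5.41, 4.10 and 4.77. Rheb, the GTPase that activates mTORC1, had folds of 5.75 in replicate 2 and 6.22 in replicate 3. The difference between the lists was not tested. The intervals of the role groups were wide, because each holds only 5 to 10 genes.

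**Figure D2:**
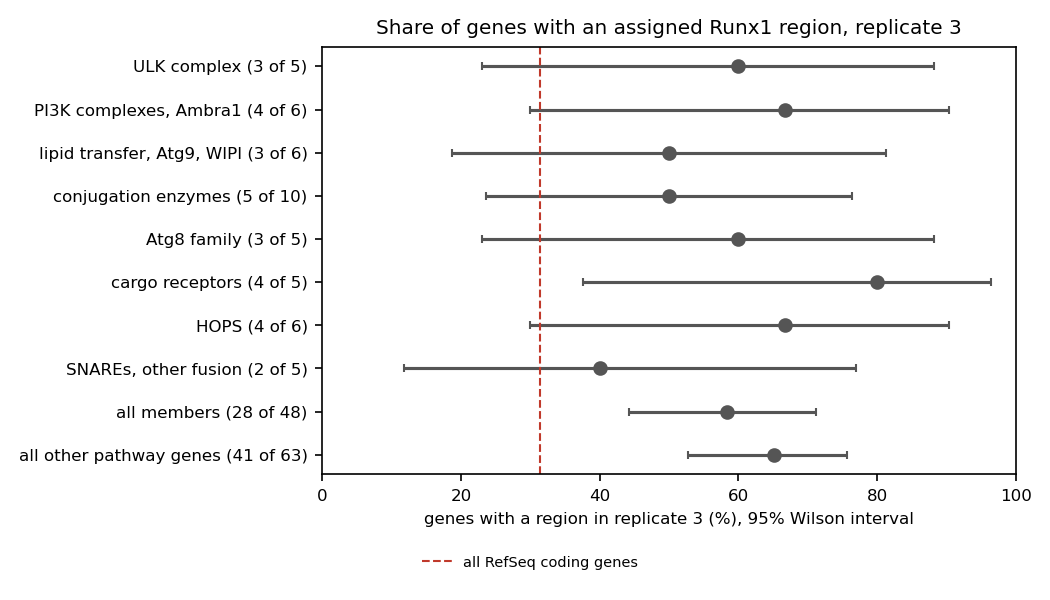
Share of genes with a region assigned in replicate 3 (horizontal axis, percent) by role group, with 95% Wilson intervals as bars and the counts beside each name. The dashed line is the 31.4% of all coding genes, and every role group lies to its right while 7 of the 8 role-group intervals cross it. The genes were chosen with earlier results known, so an interval set against the line is not a test. The cargo receptor count of 4 includes Calcoco1, whose regions are distal.

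The initiation stage had regions in replicate 3 at 10 of its 17 genes (58.8%, background 31.4%), and the strongest belonged to the lipid kinase complexes. No gene of this stage had a region in replicate 1. The background there was 1.51%, so on 17 genes this does not set the stage apart. Atg14 and Uvrag, the subunits that direct the Vps34 lipid kinase to autophagosomes and to endosomes, had replicate 3 promoter regions with folds of 6.61 and 6.62, both from pileups of 43 fragments (percentiles 93.4 and 93.5). They lay on chromosome 14 (47568164 to 47568809) and chromosome 7 (99141118 to 99141791). Ambra1, a scaffold that links Beclin 1 to the ULK complex, followed at 5.66 (promoter, chromosome 2, 91729801 to 91730497, percentile 87.1, 34 fragments). Pik3c3, the catalytic subunit Vps34 itself, was among the weakest at 2.80 (percentile 7.18, 19 fragments). Subunits of the same kinase complexes therefore stood near opposite ends of the replicate 3 list, and Becn1 and Pik3r4 had no assigned region.

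In the ULK complex, the scaffold Rb1cc1 had a promoter region (chromosome 1, 6214391 to 6214993) with a replicate 3 fold of 4.48 (percentile 69.7) and the kinase Ulk2 one of 4.18. The region assigned to Atg13, the regulatory subunit, was intronic (chromosome 2, 91689429 to 91689781, GRCm38; intron 5 of 15, fold 4.42). A separate region of replicate 3 covered the RefSeq start of Atg13 (91710537 to 91710890, fold 5.07), and the authors assigned it to Harbi1, a neighbouring gene. Ulk1 and Atg101 had no assigned region. All folds assigned to this complex lay between 4.18 and 4.48, a little above the replicate 3 median of 3.81.

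Among genes of lipid transfer and early membranes, Wipi1, which binds the lipid made by Vps34, had a replicate 3 promoter region on chromosome 11 (109611565 to 109612018) at a fold of 5.52 from 67 fragments (percentile 85.6). Atg2a, a bridge-like lipid transfer protein, had 4.57 from 28 fragments at its promoter (chromosome 19, 6241347 to 6241920, percentile 71.6). Wipi2, which recruits the conjugation machinery to the membrane, was the exception to the dominance of replicate 3. Its promoter region appeared in replicate 2 alone (chromosome 5, 142629308 to 142629578, fold 4.00, 18 fragments, percentile 49.5), and replicate 3 had no region within 1 kb of the RefSeq gene body. The Wdr45 region (fold 3.39, 13 fragments) was called promoter for the transcript the authors chose, but it lay 7.21 kb from the RefSeq gene. Atg2b and Atg9a had no assigned region.

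The conjugation stage held 2 of the strongest genes of the set. Atg3, the enzyme that transfers Atg8 proteins to lipid (ENSMUSG00000022663, chromosome 16), had a promoter region in replicate 1 (45158579 to 45158902) with a fold of 6.20 from 28 fragments, at the 79.5 percentile. The replicate 3 region overlapped it and extended further upstream (45158069 to 45158896), with a fold of 9.20 from 82 fragments (exact 95% Poisson interval of the pileup 65.2 to 101.8, counting error only) and a percentile of 98.4. Replicate 2 had no region there. The summits of replicates 1 and 3 lay 63 and 81 bases upstream of the start of the assigned transcript.

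Gabarap, an Atg8 protein (ENSMUSG00000018567, chromosome 11), had overlapping promoter regions in all 3 replicates. They ran from 69990995 to 69991253 in replicate 1, from 69990789 to 69991425 in replicate 2 and from 69990813 to 69992124 in replicate 3. The folds were 3.71, 3.55 and 8.68, from pileups of 20, 23 and 65 fragments. Replicates 1 and 2 were close to each other and low in their lists (percentiles 13.0 and 24.5), while replicate 3 was high (97.8) and 1312 bp wide with 3 summits. The Poisson intervals of the pileups in replicates 1 and 2 overlapped (12.2 to 30.9 and 14.6 to 34.5), and that of replicate 3 (50.2 to 82.8) lay above both. The depth of the libraries is unknown, so pileups of different replicates are not on a known common scale.

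The regions assigned to other Atg8 genes were weaker and came from replicate 3 alone. Gabarapl1 had a pair of promoter regions on chromosome 6 (129532731 to 129533254 and 129533497 to 129533811) with folds of 5.32 and 3.80 (percentiles 83.4 and 49.2). A replicate 2 region (129534125 to 129534433, fold 4.89) lay inside the RefSeq Gabarapl1 gene, 933 bases from its start, but was assigned to the neighbouring gene 1700101I11Rik. By position Gabarapl1 thus had regions in replicates 2 and 3, which did not overlap each other. Map1lc3b, which encodes LC3B, had a fold of 3.29 from a pileup of 38 fragments over a local background of 10.8 fragments. Gabarapl2 and Map1lc3a had no assigned region. Among the enzymes, Atg4c, a protease that processes Atg8 proteins, had a promoter region of 1061 bp (chromosome 4, 99193873 to 99194933) with a fold of 6.62 (percentile 93.5) and a weak second region in intron 1 of 10 with a fold of 3.23. Atg10 and Atg5, parts of the Atg12 conjugation branch, had promoter regions with folds of 4.83 (chromosome 13, 91223684 to 91224368, percentile 76.6) and 4.44, and Atg4d had 3.92. Atg7, the enzyme that activates both ubiquitin-like systems, Atg12, Atg16l1, Atg4a and Atg4b had no assigned region.

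Cargo receptors had regions at 4 of 5 genes in replicate 3 (80%, 95% Wilson interval 37.6 to 96.4, background 31.4%). Their median fold was 3.86 beside 3.81 for all regions. This median is itself the fold of a distal Calcoco1 region, described below. The best known receptor, Sqstm1 (p62), had a fold of 2.92 from 24 fragments, at the 11.1 percentile of replicate 3. Nbr1, a receptor related to p62, had a region of 1252 bp with 4 summits and a fold of 4.43. Tax1bp1 had 3.60, and Optn had no assigned region. None of the 5 receptors passed a fold of 5 in any replicate. The shares of all coding genes at that limit were 0.713%, 0.882% and 8.47% in replicates 1, 2 and 3. On 5 genes this does not set the receptors apart from background.

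Calcoco1, a receptor for autophagy of the endoplasmic reticulum, had regions in all 3 replicates, none of them at its promoter. They overlapped about 24 kb upstream on chromosome 15 (102746726 to 102747202 in replicate 1, 102746631 to 102746973 in replicate 2 and 102746285 to 102747196 in replicate 3). Their folds were 4.86, 3.15 and 3.86, from 20, 17 and 32 fragments (percentiles 50.2, 4.51 and 51.9). A second region of replicate 3 lay nearby (102743982 to 102744290, fold 4.36). The authors' class for all of them was distal intergenic. In RefSeq annotation the 3 overlapping regions lie over the long non-coding RNA genes Cistr and Gm36560, and none of them overlaps Calcoco1.

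The fusion stage contained the strongest region of the whole set. Vps11, a core subunit of HOPS (ENSMUSG00000032127), was marked in replicate 3 at its promoter (chromosome 9, 44361291 to 44361905), where the fold was 9.48 from 89 fragments (Poisson interval 71.5 to 109.5), at the 98.6 percentile. Replicates 1 and 2 had no region there. Vps33a, the HOPS subunit that clasps SNAREs (ENSMUSG00000029434, chromosome 5), had overlapping promoter regions in replicate 1 (123572911 to 123573151) and replicate 3 (123572700 to 123573151). Its folds were 5.51 and 6.87, from 30 and 61 fragments, and its percentiles 66.9 and 94.4. Vps41 and Vps16 had regions in replicate 3 alone, at folds of 3.73 and 3.21. Vps18 and Vps39 had no assigned region, so HOPS subunits ranged from the top of the set to none called.

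Rab7 and Epg5 shared a different pattern, with overlapping regions in replicates 2 and 3 and none in replicate 1. Rab7, the GTPase that recruits HOPS to late endosomes (ENSMUSG00000079477, chromosome 6), had folds of 4.25 (88045054 to 88045407, 26 fragments) and 4.98 (88045159 to 88045411, 51 fragments), at percentiles 61.4 and 79.2. Epg5, a Rab7 effector that tethers autophagosomes to lysosomes (ENSMUSG00000039840, chromosome 18), had promoter regions from 77938122 to 77938500 and from 77938164 to 77938675, with folds of 3.98 and 4.10 (21 and 34 fragments, percentiles 48.5 and 59.8). The folds of each gene were close in the 2 replicates. The SNARE genes Stx17 and Snap29 and the adaptor Plekhm1 had no assigned region.

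Nearly all regions of the set sat at starts of transcription. In replicate 3, 27 of the 31 regions (87.1%, 95% Wilson interval 71.1 to 94.9) fell in the authors' promoter class within 1 kb, beside 71.4% of regions assigned to coding genes and 62.6% of all regions. Replicate 1 had 3 of 4 and replicate 2 had 4 of 5 in that class, with the Calcoco1 region as the exception in both. These shares of 75% and 80% stood beside 89.9% and 76.6% of regions assigned to coding genes, the first lower and the second close to its background, on 4 and 5 regions. The strongest summit of the 27 promoter regions lay a median of 81 bases from the start of the assigned transcript, and 15 lay within 100 bases. Of the summits, 16 lay downstream, 10 upstream and 1 at the start. Uvrag had the summit farthest upstream, at 369 bases, and Atg4c the one farthest downstream, at 508.

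**Figure D3:**
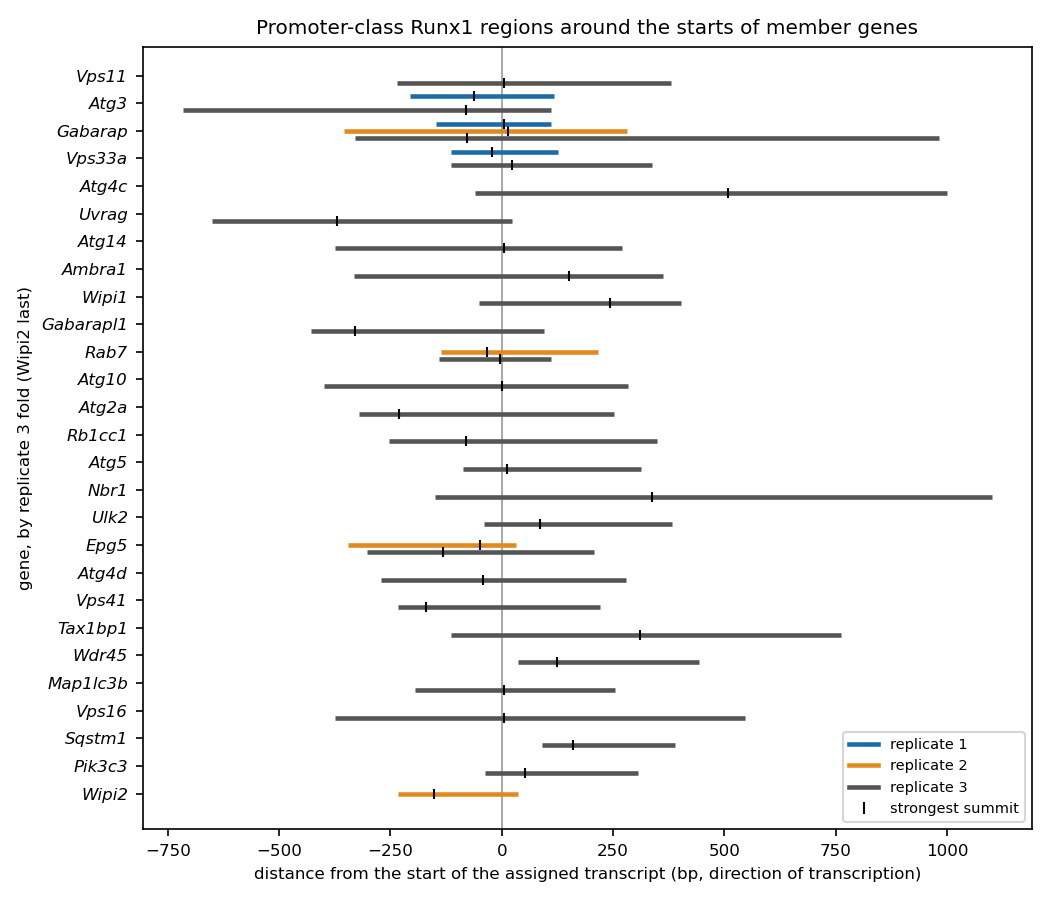
Extent of the strongest promoter-class region of each gene and replicate (bars, coloured by replicate) around the start of the transcript the authors assigned (0 on the horizontal axis, in bp in the direction of transcription), with a tick at the strongest summit. Genes are ordered by replicate 3 fold, and the regions of replicates 1 and 2 at Atg3, Gabarap, Vps33a, Rab7 and Epg5 lie over the same starts as those of replicate 3.

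Within replicate 3, the regions of the set were stronger than the list as a whole. Their median fold was 4.43 and their median percentile 68.4, beside a median fold of 3.81 for regions of coding genes and for all regions. Of the 31, 7 (22.6%) were above the 90th percentile of replicate 3, namely those of Vps11, Atg3, Gabarap and Vps33a and the promoter regions of Atg4c, Uvrag and Atg14. Of regions of coding genes, 9.83% were above it. At a fold of 5 or more, 10 of the 48 genes remained in replicate 3 (20.8%, background 8.47%). The comparison was not matched for class, and 87.1% of the regions of the set were in the promoter class within 1 kb against 62.6% of all. Regions of the 63 other pathway genes had a median fold of 3.74 in replicate 3, so the higher fold was not shared by that list. Replicate 1 showed medians of 5.18 for its 4 regions and 4.86 for all, and replicate 2 3.98 for its 5 regions and 4.01 for all. With 4 and 5 regions, these medians say little beyond the single values. Widths were similar in replicate 3 to those of all coding genes, with a median of 524 bp against 482 bp and several summits in 35.5% against 30.4%.

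Because each region was assigned to 1 gene, some regions at starts of the set carry the name of a neighbour. Of the 19 genes without an assigned region, 6 had a replicate 3 region in the RefSeq gene body or within 1 kb of it that the authors assigned to a neighbour. At Atg4a and Atg4b such a region covered the RefSeq start and was assigned to Psmd10 (fold 4.65) and Thap4 (3.59). At Atg9a, the scramblase of the vesicles that seed autophagosomes, it lay 99 bases from the start and was assigned to Ankzf1 (4.04). At Atg2b it lay 56 bases from the start and was assigned to Gskip (2.60). At Atg12 the region at the high-coordinate end of the RefSeq gene on chromosome 18 (46741621 to 46741838) went to Ap3s1 with a fold of 5.68, at the 87.3 percentile. At Plekhm1 the region lay 49066 bases from the start and was assigned to Arhgap27. With gene bodies extended by 1 kb in place of the authors' assignment, 33 of the 48 genes had a region in replicate 3 (68.8%, background 36.5%). Neither measure gave a region for 13 genes: Ulk1, Atg101, Becn1, Pik3r4, Atg7, Atg16l1, Gabarapl2, Map1lc3a, Optn, Vps18, Vps39, Stx17 and Snap29. A gene without a region was not shown to lack binding.

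The reverse also held: 3 of the 27 promoter regions of replicate 3 had the start of another coding gene within 1 kb (11.1%, beside 9.51% of promoter regions of coding genes). They were those of Atg3, Vps16 and Nbr1. The Atg3 region lies at a promoter shared with Slc35a5, a nucleotide sugar transporter gene, and the Vps16 region at that of Pced1a. The Nbr1 region has the start of Brca1 within 1 kb. The enrichment at these regions cannot be told apart between the paired genes.

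Promoter letters were read for 39 of the 48 genes, which matched 44 RefSeq windows from 250 bases before to 50 after a start (GRCm38.p6). The E-box core CACGTG, which reads the same on both strands, and its longer form TCACGTGA, which contains it, are known as letters read by basic helix-loop-helix factors. The MiT/TFE factors that control lysosomal and autophagy genes are among these. TCACGTGA occurred in the windows of Atg3, Vps33a and Vps16, 3 of 44 (6.82%), beside 1.23% of 21263 coding windows. These are the 250 bases before the start at those 3 genes, shown 5′ to 3′ in the direction of the gene because Atg3 and Vps33a were 2 of the 3 genes with a promoter region in replicate 1. They lie at chr16:45158579-45158828 on the plus strand, chr5:123573016-123573265 on the minus strand and chr2:130424070-130424319 on the plus strand, and the capitals mark CACGTG and TCACGTGA.
Atg3: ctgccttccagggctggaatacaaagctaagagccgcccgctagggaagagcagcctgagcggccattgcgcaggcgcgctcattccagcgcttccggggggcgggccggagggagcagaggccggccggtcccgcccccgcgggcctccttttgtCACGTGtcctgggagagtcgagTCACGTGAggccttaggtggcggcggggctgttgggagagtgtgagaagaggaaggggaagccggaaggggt
Vps33a: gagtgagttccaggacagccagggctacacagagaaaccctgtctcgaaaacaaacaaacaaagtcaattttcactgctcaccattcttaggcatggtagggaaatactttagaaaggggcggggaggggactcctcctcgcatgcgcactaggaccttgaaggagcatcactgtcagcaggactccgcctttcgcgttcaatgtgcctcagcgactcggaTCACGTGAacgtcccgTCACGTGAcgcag
Vps16: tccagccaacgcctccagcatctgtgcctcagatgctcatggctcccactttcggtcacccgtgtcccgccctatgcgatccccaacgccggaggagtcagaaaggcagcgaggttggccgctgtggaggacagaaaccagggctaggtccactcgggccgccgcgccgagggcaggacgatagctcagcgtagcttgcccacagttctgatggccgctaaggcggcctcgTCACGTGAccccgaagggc

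The E-box letters lay close to the summits. Their positions are given from the RefSeq start of the window. At Vps33a and Atg3 this is not the start of the assigned transcript, from which summit positions were given above. At Vps33a there are 2 copies of TCACGTGA, beginning 29 and 13 bases before the start, and their centres lay 18.5 and 34.5 bases from the summit of replicate 1 and 24.5 and 8.5 bases from that of replicate 3. At Atg3 the TCACGTGA copy begins 72 bases before the start and its centre lay 38.5 and 56.5 bases from the summits of replicates 1 and 3, with a shorter CACGTG still closer, at 15.5 and 33.5 bases. Vps16 has the same letters 39.5 bases from its summit, yet its fold was 3.21 and at the 24.1 percentile. CACGTG alone also occurred at Atg14, where it begins 1 base before the start and is centred 2.5 bases from the summit, at Atg5, 42.5 bases from the summit, and at Atg7, which had no region. In all, 6 of 44 windows of the set held CACGTG (13.6%), beside 7.84% of coding windows.

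A raised share of E-box letters was not limited to autophagy genes. Over all coding genes, CACGTG occurred in 46.1% of the 256 windows that a region of replicate 1 overlapped, in 22.7% of 739 in replicate 2 and in 13.0% of 5643 in replicate 3. For TCACGTGA the shares were 21.5%, 8.39% and 3.24%. Both shares were above those of all coding windows in each replicate and were highest in replicate 1. The E-box letters contain a CpG dinucleotide, and these shares were not matched for base composition. Windows of a gene with several starts can share bases, and a match of letters is not a binding site.

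The Runx core was not more common in occupied promoters in its TGTGGT form. Searched on both strands, TGTGGT occurred in 10.5%, 10.1% and 10.9% of windows in regions of replicates 1, 2 and 3, below the 15.0% of all coding windows. TGCGGT occurred in 17.6%, 13.8% and 11.5%, above the 7.44% of all. TGCGGT contains a CpG dinucleotide and TGTGGT does not. Coding windows in replicate 3 regions had medians of 23 CpG dinucleotides and 62% GC, against 13 and 56.3% in all coding windows. The shares were not matched for composition, and its part in them was not tested. In the set, 9 of 44 windows held TGTGGT (20.5%) and 5 held TGCGGT (11.4%). Of the 28 windows of the set inside replicate 3 regions, 7 held TGTGGT (25%) and 5 held TGCGGT (17.9%), so for TGTGGT the set ran opposite to all coding windows, on small counts and with no test. The 7 include windows of Atg13, Atg4b and Atg9a, which lie in regions assigned to neighbours. No window of Gabarap, Atg3 or Vps33a held either, but the Gabarap window did not reach the replicate 3 summit of its region. Near a summit, TGTGGT lay 18.5 bases away at Atg4d and 62.5 bases away at Nbr1, and 2 copies of TGCGGT lay 46.5 and 87.5 bases away at Atg10. The 250 bases before the start of Atg4d (chr9:21265035-21265284 on the plus strand) and Atg10 (chr13:91223988-91224237 on the minus strand) are shown. Their Runx letters were the closest in the set to the summit of a region assigned to the gene itself. Distances to summits of regions assigned to neighbours were not measured. Capitals mark the Runx core on whichever strand it lies.
Atg4d: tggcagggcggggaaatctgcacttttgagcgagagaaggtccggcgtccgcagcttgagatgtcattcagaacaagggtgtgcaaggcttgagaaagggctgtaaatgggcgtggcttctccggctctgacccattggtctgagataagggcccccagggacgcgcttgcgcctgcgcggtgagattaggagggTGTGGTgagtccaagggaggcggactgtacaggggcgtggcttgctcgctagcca
Atg10: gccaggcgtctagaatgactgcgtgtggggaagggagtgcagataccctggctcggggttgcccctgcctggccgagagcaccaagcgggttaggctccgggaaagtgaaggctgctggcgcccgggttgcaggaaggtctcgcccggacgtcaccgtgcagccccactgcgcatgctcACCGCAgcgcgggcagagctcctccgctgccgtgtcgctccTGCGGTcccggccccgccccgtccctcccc

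Gabarap and Rab7 had regions in several replicates with none of the searched letters in the 250 bases before the RefSeq start shown. These bases lie at chr11:69991120-69991369 on the plus strand and chr6:88045271-88045520 on the minus strand. At Gabarap the replicate 3 summit (69991066) lay upstream of the bases shown. The summits of replicates 1 and 2 (69991147 and 69991157) lay close to their upstream end. Bases further upstream were not read, so the missing match does not set Gabarap apart from other genes.
Gabarap: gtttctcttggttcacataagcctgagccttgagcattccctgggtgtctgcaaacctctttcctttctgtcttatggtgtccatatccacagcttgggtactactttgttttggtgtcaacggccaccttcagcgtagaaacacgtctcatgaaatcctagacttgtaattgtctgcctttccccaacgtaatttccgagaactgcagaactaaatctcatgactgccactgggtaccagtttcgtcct
Rab7: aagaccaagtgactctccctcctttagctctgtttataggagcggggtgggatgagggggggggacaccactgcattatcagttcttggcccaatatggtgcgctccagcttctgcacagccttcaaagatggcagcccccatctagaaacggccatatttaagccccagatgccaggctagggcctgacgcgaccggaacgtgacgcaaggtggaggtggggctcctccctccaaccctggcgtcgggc

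At Rab7, whose nearest start is the one shown, a second RefSeq start has TGCGGT within its window, 229.5 and 201.5 bases from the summits of replicates 2 and 3. The palindromic NRF1 core motif occurred in 0 of 44 windows of the set (1.33% of all coding windows). The ETS-type letters CCGGAAGT occurred in 2 of 44 (Atg101 and Gabarapl2, neither with a region), beside 5.15% of all. In coding windows within regions of replicates 1, 2 and 3, the NRF1 motif occurred in 3.1%, 2.6% and 2.7%. For the ETS-type letters these shares were 3.9%, 8.5% and 10.4%. Of the 28 windows of the set inside replicate 3 regions, 0 held either. No match says only that these letters are not in the window. The windows of the set held a median of 20 CpG dinucleotides against 13 in all coding windows and 23 in coding windows within replicate 3 regions. Within the set, windows inside and outside replicate 3 regions had medians of 19.5 and 20, so CpG content did not separate them.

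**Figure D4:**
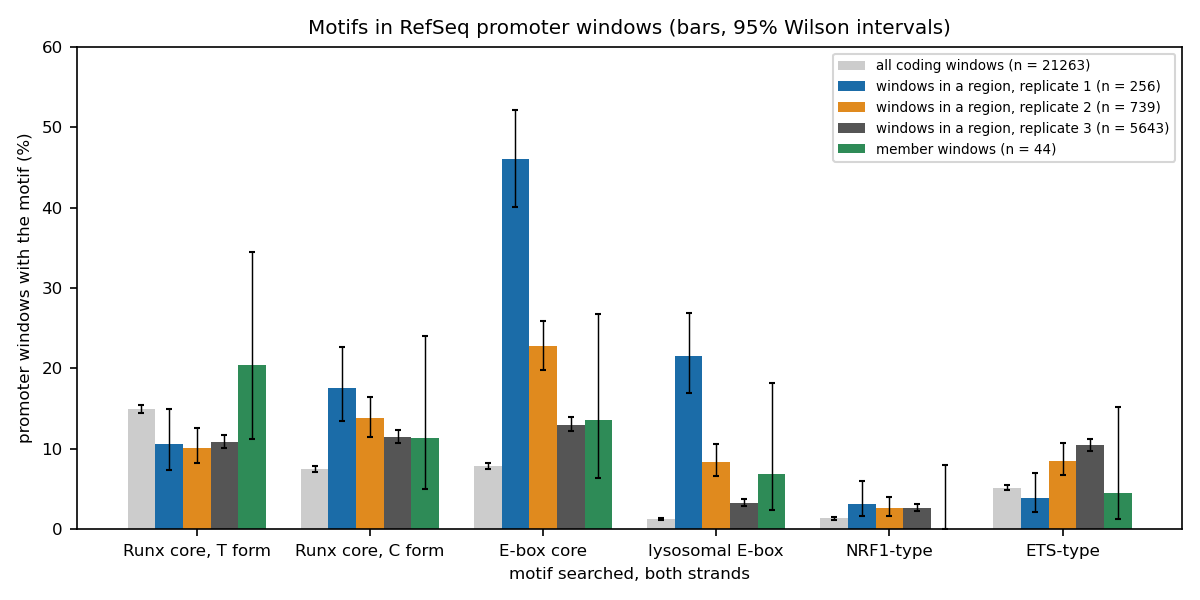
Share of RefSeq promoter windows (vertical axis, percent, bars from 0 with 95% Wilson intervals) that hold each searched motif on either strand, for all coding windows, windows overlapped by a region in each replicate, and the 44 windows of the autophagy set. The E-box core reaches 46.1% in replicate 1, the highest bar, and falls to 13.0% in replicate 3, while the intervals of the autophagy set are wide.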

How the data were processed

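The authors deposited 1 list of regions per replicate. Tools named in the submitters' processing notes include MACS2 2.1.2 for calling regions, Bowtie2 for alignment to GRCm38, and Picard 2.18.26 with SAMtools 1.9. Parameters and any control library are not stated there. For each summit the deposited lists hold its position, a score, −log10 q, −log10 p and the ratio of signal to local background (fold), and the authors' annotated tables add the class, the assigned gene and the distance to its start. The score was not used further.

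Regions were counted once, with the fold of their strongest summit, and starts are given from 1. Assigned symbols matched RefSeq coding genes in 98.8%, 99.7% and 99.1% of cases. Fold and −log10 p were solved for a whole-number pileup under a Poisson model, within 0.001 in −log10 p, in 100% of regions, and the solver was checked on simulated summits. Read depth was otherwise unknown, and intervals cover counting error only. The 48 genes and the other lists were chosen with earlier results of these data known, so no list was tested. Full values are given for every gene with a region in replicate 1 or 2 and for the 10 others with the highest fold in replicate 3. Promoter sequences are from RefSeq (GRCm38.p6). Alternatives were stricter limits, promoter class only, other assignments, other overlaps and leaving out each replicate. Computations used scipy 1.17.1, pandas 2.3.3 and numpy 2.4.6 under Python 3.11.15, and plots used matplotlib 3.10.9.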

Additional observations from a re-analysis of the deposited data

How the results depend on the processing

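Counts depended most on the limit set for a region. At a fold of 5 or more, genes with a region numbered 2, 0 and 10 in replicates 1, 2 and 3. Their shares were 4.17%, 0% and 20.8% in the 3 replicates, beside 0.713%, 0.882% and 8.47% of all coding genes. At that limit 2 genes had regions in at least 2 replicates (4.17%, background 1.04%) and 2 had overlapping regions (4.17%, background 0.996%). Regions in all 3 replicates were left at 0 genes (background 0.228%). Median folds there were 5.85 in replicate 1 and 6.62 in replicate 3, which the limit itself sets, and replicate 2 gave no median because no region was left. All regions left in replicate 3 were in the promoter class (100%). At a −log10 q of 5 or more, replicate 2 had 1 gene (2.08%, beside 2.08% of all coding genes), and 0 genes had regions in all 3 replicates (beside 0.429%). The count in all 3 replicates was 1 with promoter regions only (2.08%, background 0.722%) and with RefSeq gene bodies (2.08%, background 1.17%). It was also 1 with RefSeq starts within 1 kb (2.56% of 39 genes, background 0.966%) and at the p limit of replicate 1 (2.08%, background 0.763%). These last 2 rules were chosen after seeing the data. With RefSeq gene bodies the count in at least 2 replicates stayed at 6 (12.5%, background 6.68%), but with Gabarapl1 in place of Calcoco1. With any single replicate left out, 2 to 4 genes had regions, and 2 to 4 had overlapping regions, in both remaining replicates, the lowest without replicate 3. No share over all coding genes is given for these counts, so they cannot be set against a background. Every other alternative kept its count within 1.5 times, or its median or share within the spread, of the value reported. No paired analysis was possible because there is 1 group.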
